A study of Mus musculus with 10 samples.

Results

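The 10 genes described here, Ctsa, Ctsb, Ctsc, Ctsd, Ctse, Ctsh, Ctsk, Ctsl, Ctss and Ctsz, encode cathepsins, and they were taken as a list of symbols from the 24538 genes in the count files. All 10 were among the 11571 genes tested, but Ctse passed the filter, a mean of 1 FPKM in either population, only through MAMs, so it had to differ in that direction. RNA sequencing compared metastasis-associated macrophages (MAMs) with resident alveolar macrophages (RAMs), both sorted from lungs of wild type female C57BL6/J mice aged 8 to 10 weeks. Both populations were CD45+, F4/80+, LY6C-, MRC1+ and high in forward scatter. The 5 MAM libraries came from CD11B+ CD11C- cells of lung metastases seeded through the tail vein with E0771-LG, a syngeneic mouse breast cancer line. The 5 RAM libraries came from CD11B- CD11C+ cells of normal lungs without injected tumour cells. Small nodules were dissected and pooled, so a MAM library can hold several animals. The sample labels give 2 to 4 mice per pool, while the study's methods give a wider range that includes a single mouse, and describe other samples as individual mice. The inhibitors of transcription alpha-amanitin and actinomycin D were present while the tissue was digested. The sources do not say how far replicates were separate experiments, and p-values measure the spread between these libraries only.

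Cathepsins are proteases of lysosomes and endosomes. They are made as inactive proenzymes, are carried to the acidic compartment largely by mannose 6-phosphate receptors, and are activated there by removal of the propeptide. In macrophages they digest phagocytosed material, prepare antigens and the invariant chain for MHC class II, and can be secreted to act on the extracellular matrix. The listed genes cover the 3 catalytic classes. Ctsb, Ctsc, Ctsh, Ctsk, Ctsl, Ctss and Ctsz encode cysteine proteases, Ctsd and Ctse aspartic proteases, and Ctsa a serine carboxypeptidase.

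Libraries held 55391447 to 87523247 counts on genes in MAMs and 50746305 to 72150650 in RAMs, and no pair of libraries held identical counts. Levels of the same gene are compared as CPM, its counts relative to the normalized total of tested genes in a library. Levels between genes are compared as FPKM, which is also per kilobase of transcript. Differences were tested by edgeR (quasi-likelihood test, Benjamini-Hochberg adjustment over all tested genes), and a gene was called when the adjusted p was under 0.05. The genes of CD11B and CD11C, which separated the sorts, differed in the sorted direction. Itgam, the gene of CD11B, had a log2 fold change of 6.61 in MAMs over RAMs, and Itgax, the gene of CD11C, of -2.54. Of the genes for LY6C, gated out of both sorts, Ly6c2 had a mean of 10.5 CPM in MAMs and 0.143 in RAMs, and Ly6c1 1.67 and 0.117. Both were called higher in MAMs and passed the filter only through MAMs. Mrc1 was called lower in MAMs (-0.89), Adgre1, the gene of F4/80, higher (0.37), and Ptprc, the gene of CD45, was not called (-0.14). The summed CPM of 8 alveolar macrophage markers was 261 to 557 in MAMs and 9483 to 12288 in RAMs, and that of 6 monocyte-derived macrophage markers 10682 to 13064 in MAMs and 117 to 139 in RAMs. The 6 monocyte-derived markers include Itgam, so part of the contrast in their sum was set by the CD11B gate. Itgam alone averaged 6270 CPM over MAM libraries against 64.3 over RAM libraries. The rest of that list, Ccr2, Cx3cr1, C1qa, C1qb and C1qc, was also called higher in MAMs. Of these, Cx3cr1 passed the filter only through MAMs. In such bulk samples fewer cells of a type and less RNA per cell cannot be told apart.

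Of the 10 cathepsin genes 9 were higher in MAMs and 1 was lower. The largest rises among well expressed members were in Ctsl and Ctsb, which were 8.24-fold and 6.97-fold higher, and Ctsk alone was lower, with RAMs 5.33-fold above MAMs. Among all 11571 tested genes 28.9% were called higher and 27.3% lower, or 56.2% in either direction. With a fold change over 2 in addition, 4 members remained higher (Ctsb, Ctse, Ctsl and Ctsz) and Ctsk remained lower, against 15.3% and 15.1% of tested genes, or 30.3% in either direction. Without Ctse, which passed the filter only through MAMs, 8 of 9 members were called higher, 3 of them over 2-fold. The median log2 fold change was 0.86 over the members and -0.015 over all tested genes. In 8 members every library of MAMs lay on the same side of every library of RAMs, which was the case for 44.9% of tested genes. These 8 include Ctse, which passed the filter only through MAMs. Ctsa and Ctsd, where the groups overlapped, were the exceptions.

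**Figure D1:**
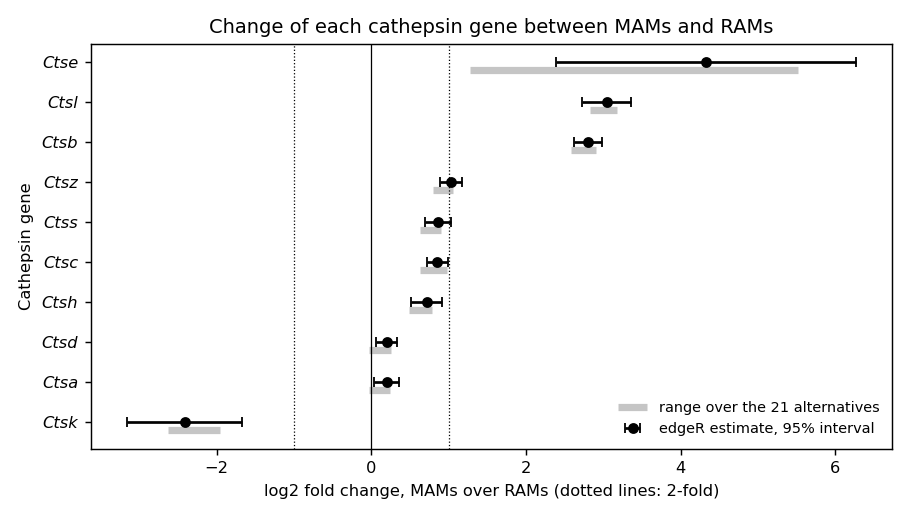
Log2 fold change of each cathepsin gene in MAMs over RAMs (horizontal axis), with the 95% interval of edgeR's estimate as a line and the range over 21 alternative settings as a grey bar. Ctsk lies at -2.41, Ctsa and Ctsd lie at 0.20, and Ctsb, Ctsl and Ctse lie from 2.80 to 4.33.

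The order of transcript levels was led by the same genes in both populations. In MAMs the mean FPKM fell from Ctss (3914 ± 151, SD, n = 5) through Ctsd (3374 ± 184), Ctsb (1374 ± 113), Ctsl (635 ± 132), Ctsz (516 ± 26.9), Ctsa (329 ± 21.7), Ctsh (329 ± 19.2), Ctsc (199 ± 10.0) and Ctsk (13.05 ± 4.69) to Ctse (1.64 ± 0.367). In FPKM the ranges of neighbours did not overlap except for Ctsl and Ctsz, and Ctsa and Ctsh. Ctss and Ctsd ranked 40 and 44 among all tested genes by mean FPKM in MAMs, and Ctsb ranked 64.

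In RAMs the order was Ctsd (3060 ± 261 FPKM, SD, n = 5), Ctss (2219 ± 260), Ctsa (286 ± 20.6), Ctsz (265 ± 18.6), Ctsb (202 ± 20.1), Ctsh (201 ± 26.9), Ctsc (101 ± 6.04), Ctsk (87.1 ± 59.9), Ctsl (76.0 ± 12.4) and Ctse (0.0883 ± 0.157). The ranges of Ctsa and Ctsz, Ctsb and Ctsh, Ctsc and Ctsk, and Ctsk and Ctsl overlapped, so these neighbours had no fixed order. Ctsk stood above Ctsl in only 1 of the 5 RAM libraries. Ctsd and Ctss ranked 38 and 41 among all tested genes in RAMs, whereas Ctsb ranked 251 and Ctsl 791. The order depended on the unit. With CPM per kilobase of exon in place of FPKM, the first 3 places in MAMs and the first 2 in RAMs were unchanged, but Ctsz stood above Ctsl in MAMs and above Ctsa in RAMs. On that scale Ctsc, at 273 in MAMs, stood above Ctsa (199) and Ctsh (111), and in RAMs Ctsc (151) and Ctsk (95.4) stood above Ctsh (67.7), so the place of Ctsh above Ctsc held in FPKM only.

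**Figure D2:**
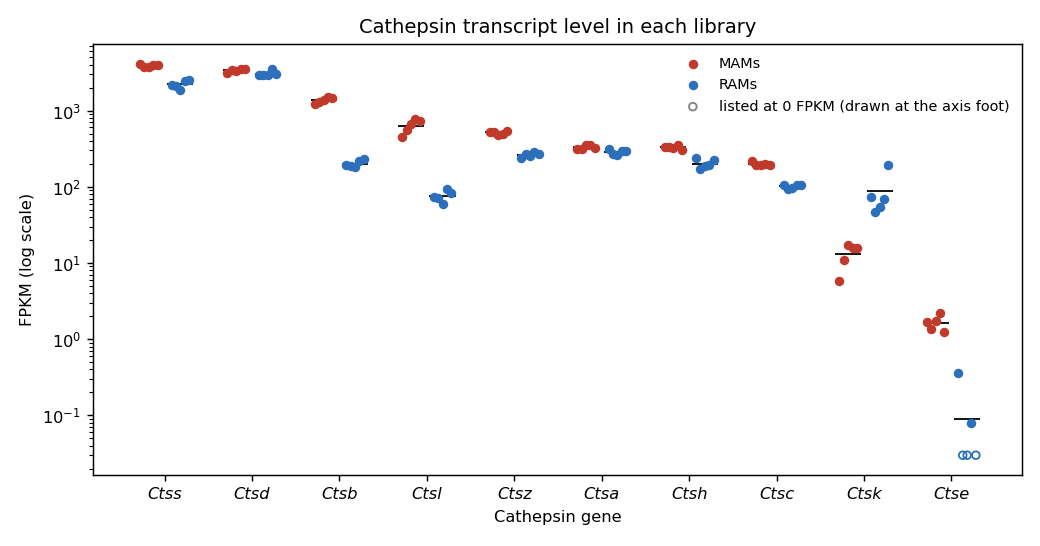
FPKM of the 10 cathepsin genes on a log axis, 1 point per library (red MAMs, blue RAMs) with the group mean as a black line; 3 RAM libraries listed at 0 FPKM for Ctse are open circles at the foot. Ctss and Ctsd are at 1882 FPKM or more in every library, and Ctsk is the gene whose RAM points lie above its MAM points.

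Ctsb encodes a cysteine protease that cuts within chains and also trims dipeptides from their ends, and Ctsl encodes a cysteine endopeptidase of broad specificity. Ctsb lies at chr14:63122462-63145923 on the plus strand of GRCm38 and has 10 exons in its longest transcript. In MAM replicates 1 to 5 Ctsb had 5969, 6288, 6683, 7198 and 7199 CPM. In RAM replicates 1 to 5 it had 920.0, 888, 859, 1037.5 and 1079 CPM. The lowest MAM library was thus several times above the highest RAM library, with no overlap. The log2 fold change was 2.80 (standard error, SE, 0.0832, 95% interval 2.62 to 2.98, adjusted p = 5.6e-13, edgeR quasi-likelihood test, Benjamini-Hochberg). Ctsb overlaps Fdft1 on the other strand, and the strand setting of the counting is not given in the sources used here, so reads of this pair could be mixed.

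Ctsl lies at chr13:64359337-64370890 on the minus strand, with 9 exons. Its level was 1741, 2162, 2558, 2964 and 2822 CPM in MAM replicates 1 to 5. In RAM replicates 1 to 5 it was 288, 281, 233, 362 and 323 CPM. All MAM libraries were above all RAM libraries, although MAM replicate 1 stood at the low end of its group, which spanned 1.70-fold from lowest to highest. The log2 fold change was 3.04 (SE 0.150, 95% interval 2.72 to 3.36, adjusted p = 1.5e-10, edgeR with the same adjustment). For both genes the call was kept under all 21 alternatives, at 2.58 to 2.91 for Ctsb and 2.82 to 3.17 for Ctsl.

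Ctss, Ctsz, Ctsc and Ctsh form a group of cysteine cathepsins with smaller rises. Ctss encodes an endopeptidase that stays active at neutral pH and makes the last cut of the invariant chain. It lies at chr3:95526786-95556403 on the plus strand, with 8 exons. Its level was 5520.5, 4952, 4987, 5219 and 5280.3 CPM in MAM replicates 1 to 5, and 2869, 2652, 2398, 3155 and 3233 CPM in RAM replicates 1 to 5. The groups did not overlap, and the log2 fold change was 0.86 (SE 0.0788, 95% interval 0.69 to 1.03, adjusted p = 2.0e-07, edgeR). Because Ctss was already among the most abundant transcripts of RAMs, this 1.81-fold difference spanned 2219 to 3914 FPKM between the group means, against 202 to 1374 for Ctsb.

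Ctsz encodes a carboxypeptidase, also called cathepsin X, and lies at chr2:174427493-174439039 on the minus strand, where it overlaps Nelfcd. It had 568 to 650.0 CPM in MAM libraries and 284 to 322 in RAM libraries, without overlap. Its log2 fold change of 1.03 (SE 0.0674, adjusted p = 4.4e-09, edgeR) lay close to the 2-fold line. It was under that line with upper-quartile factors (0.86), with library totals alone (0.80) and with limma on log2(FPKM + 1) or log2(FPKM + 0.1) (0.96).

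Ctsc encodes dipeptidyl peptidase I, which activates the serine proteases of leukocyte granules, and lies at chr7:88278085-88310888 on the plus strand. It had 1494 to 1735 CPM in MAM libraries and 820.0 to 931 in RAM libraries, with a log2 fold change of 0.86 (SE 0.0649, adjusted p = 2.3e-08, edgeR). Ctsh encodes an aminopeptidase and lies at chr9:90054152-90076089 on the plus strand. It had 462 to 538 CPM in MAM libraries and 253 to 367 in RAM libraries, with a log2 fold change of 0.72 (SE 0.094, adjusted p = 1.0e-05, edgeR). Neither gene's groups overlapped, and neither reached a fold change of 2. In RAMs Ctsh was highest in replicate 1, which was 1.45-fold above the lowest library.

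Ctsk encodes a cysteine protease with strong collagenase activity, best known from osteoclasts. It lies at chr3:95499256-95509362 on the plus strand, with 8 exons, and the start of Ctss follows it by 17423 bases on the same strand. Both promoters are shown because the neighbouring genes differed in opposite directions. The 120 bases before each RefSeq start (GRCm38.p6, plus strand), chr3:95499090-95499209 for Ctsk and chr3:95526666-95526785 for Ctss, read as follows, with capitals marking a match to the interferon-stimulated response element core GAAANNGAA.
Ctsk: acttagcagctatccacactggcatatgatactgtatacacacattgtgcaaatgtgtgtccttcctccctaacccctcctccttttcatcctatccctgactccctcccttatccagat
Ctss: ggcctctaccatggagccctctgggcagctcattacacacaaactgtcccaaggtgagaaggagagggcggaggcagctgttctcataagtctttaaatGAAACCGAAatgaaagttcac
The match in Ctss starts 21 bases before the RefSeq start. The 250 bases before the start held no CG dinucleotide in Ctsk and 4 in Ctss.

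In MAM replicates 1 to 5 Ctsk had 14.3, 22.04, 39.9, 30.4 and 28.7 CPM. In RAM replicates 1 to 5 it had 121, 79.3, 94.9, 123 and 303 CPM. The groups did not overlap, and RAM replicate 5 stood far above the other RAM libraries. The log2 fold change was -2.41 (SE 0.347, 95% interval -3.16 to -1.67, adjusted p = 2.6e-05, edgeR quasi-likelihood test, Benjamini-Hochberg). Without RAM replicate 5 it was -1.95 (adjusted p = 9.4e-06, edgeR), and the call was kept under all 21 alternatives.

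Leaving out Ctse, whose RAM libraries held 0 to 28 counts, Ctsk varied most within each group, with the highest library 2.80-fold above the lowest in MAMs and 3.82-fold in RAMs. Acp5, another gene known from osteoclasts, was also highest in RAM replicate 5, at 177 CPM against 93.8 to 138 in the other RAM libraries. In MAM replicates 1 to 5 Acp5 had 50.02, 48.5, 88.6, 88.4 and 117 CPM, highest in replicate 5, whereas Ctsk was highest in replicate 3. Of 5 osteoclast markers, Acp5 was called lower in MAMs, like Ctsk, with a log2 fold change of -0.68, although its groups overlapped. Acp5 passed the filter in both populations. Calcr was at 0 counts in every library, and Ocstamp, Dcstamp and Mmp9 were called the other way from Ctsk. Their means were 2.89, 28.3 and 19.0 CPM in MAMs and 0.0362, 0.356 and 0.252 in RAMs, and all 3 passed the filter only through MAMs. The summed CPM of 7 stromal markers was 50.2, 23.2, 58.1, 42.4 and 39.4 in MAM replicates 1 to 5. Over replicates 2 to 5 this sum and Ctsk had the same order, lowest in replicate 2 and highest in replicate 3. Replicate 1 departed from that order, with the lowest Ctsk of the group at a stromal sum of 50.2. In RAMs that sum was 1.82 to 10.9. The part of these cells in the level of Ctsk was not tested.

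The ratio of Ctsl to Ctsk in FPKM combined these opposite differences. Its median was 49.97 in MAMs (38.4 to 76.5 over the 5 libraries) and 1.09 in RAMs (0.434 to 1.55). Ctss to Ctsk had a median of 253 in MAMs and 34.6 in RAMs, where the lowest value, 13.1, came from replicate 5.

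Ctsd, the main aspartic protease of lysosomes, and Ctsa, which encodes the protective protein that stabilizes lysosomal beta-galactosidase and neuraminidase, differed least. Ctsd lies at chr7:142375911-142388038 on the minus strand and Ctsa at chr2:164832873-164841032 on the plus strand, where it overlaps Neurl2 and Pltp. Of the 7 members with a RefSeq promoter entry, only these held TCACGTGA, the core of the CLEAR element bound by the MiT/TFE transcription factors of lysosomal genes. The 30 bases around the site are shown for Ctsd (chr7:142387908-142387937, minus strand) and for the first of 2 sites at the second RefSeq start of Ctsa (chr2:164833749-164833778, plus strand), with the match in capitals.
Ctsd: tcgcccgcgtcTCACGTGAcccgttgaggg
Ctsa: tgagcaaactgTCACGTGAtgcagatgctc
The sites start 99 and 13 bases before the respective RefSeq starts, which lie 211 and 900 bases inside the GENCODE genes.

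Ctsd had 5652, 6142, 5956, 6243 and 6515 CPM in MAM replicates 1 to 5. It had 5199, 5119.9, 4958, 6048 and 5206 CPM in RAM replicates 1 to 5. RAM replicate 4 reached into the MAM range, so the groups overlapped. The log2 fold change was 0.20 (SE 0.064, 95% interval 0.065 to 0.34, adjusted p = 0.0145, edgeR). An exact two-sided permutation test over the libraries gave p = 0.0238. The call was lost with upper-quartile factors (0.037), with limma on log2(FPKM + 1) and log2(FPKM + 0.1) (0.14 in both) and without RAM replicate 3 (0.17), and with library totals alone the value was -0.023.

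Ctsa had 888, 867, 999, 1011 and 928 CPM in MAM replicates 1 to 5 and 921, 762, 738, 825 and 839 CPM in RAM replicates 1 to 5. RAM replicate 1 lay above MAM replicates 1 and 2. The log2 fold change was 0.20 (SE 0.0749, 95% interval 0.040 to 0.36, adjusted p = 0.0334, edgeR), and the exact two-sided permutation test gave p = 0.0317. The call was lost in 10 of the 21 alternatives, among them each of 6 single libraries left out: MAM replicates 3 (0.18), 4 (0.17) and 5 (0.20) and RAM replicates 2 (0.17), 3 (0.16) and 4 (0.20). It was also lost with upper-quartile factors (0.036) and with library totals alone (-0.024). Those 2 scalings moved the median of all tested genes by -0.16 and -0.23 on the log2 scale, about as far as they moved Ctsa and Ctsd.

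Ctse encodes an aspartic protease of endosomes and lies at chr1:131638306-131675505 on the plus strand. It was barely expressed. The MAM libraries held 164, 127, 138, 218 and 160 counts in replicates 1 to 5, and the RAM libraries 28, 8, 0, 6 and 0 counts, where a count of 0 allows up to 3. All MAM libraries were above all RAM libraries, at 3.01 ± 0.687 against 0.145 ± 0.197 CPM (SD, n = 5). The log2 fold change was 4.33 (SE 0.907, 95% interval 2.38 to 6.27, adjusted p = 8.2e-04, edgeR). Without RAM replicate 1, which held most of the RAM counts, it was 5.51, and with limma on log2(FPKM + 1), which understates changes of low genes, it was 1.28. By mean FPKM Ctse ranked 9896 of the tested genes in MAMs, so the largest fold of the list belonged to its scarcest transcript.

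For the 8 members whose groups did not overlap, an exact two-sided permutation test gave p = 0.00794 each. Groups without overlap always give this value, the smallest that 5 against 5 libraries allow, so it adds nothing to the lack of overlap.

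The composition of the cathepsin transcripts was described next, without a test. The 10 genes summed to 10684 ± 375 FPKM in MAMs and 6499 ± 558 in RAMs (SD, n = 5), a ratio of 1.64. As a share of counts on genes they took 1.92% ± 0.139 in MAMs and 1.10% ± 0.0912 in RAMs (SD, n = 5). The 7 cysteine cathepsins together were 2.21-fold higher in MAMs in FPKM, whereas the 2 aspartic cathepsins together were at a ratio of 1.10. Without Ctsd and Ctss the other 8 genes summed to 3396 FPKM in MAMs and 1219 in RAMs, a ratio of 2.79.

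In RAMs Ctsd made up 47.2% ± 2.38 and Ctss 34.1% ± 1.54 of the summed FPKM (SD, n = 5). In MAMs the order was turned, with Ctss at 36.7% ± 2.00 and Ctsd at 31.6% ± 1.09. The ratio of Ctss to Ctsd was 1.10 to 1.34 over MAM libraries and 0.651 to 0.833 over RAM libraries. The share of Ctsb was 12.8% ± 0.653 in MAMs and 3.11% ± 0.118 in RAMs, and that of Ctsl 5.91% ± 1.06 and 1.16% ± 0.0968. Ctsh took nearly the same share of both pools, 3.08% and 3.11%, and Ctsk was 0.121% of the MAM pool and 1.31% of the RAM pool, with 2.78% in RAM replicate 5. The shares depend on the unit, since longer transcripts take more counts, and by summed counts Ctsb held 27.7% of the MAM pool and Ctss 21.6%.

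**Figure D3:**
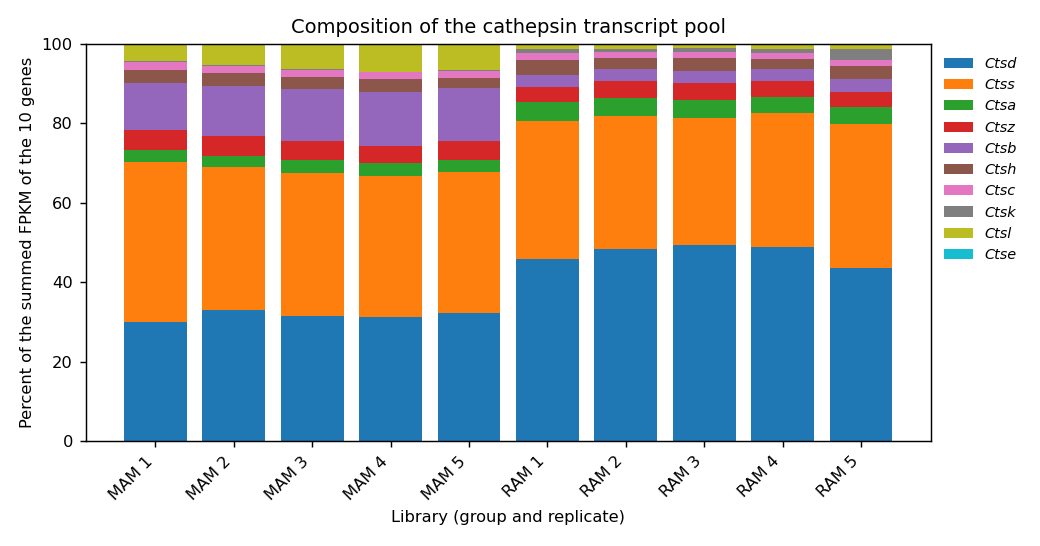
Share of each cathepsin gene in the summed FPKM of the 10 genes (vertical axis, percent), 1 bar per library. Ctsd takes 43.6% to 49.3% in RAM libraries and 30.0% to 32.9% in MAM libraries, and Ctsb takes 11.9% to 13.5% of MAM bars against 3.02% to 3.30% of RAM bars.

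Within a group the members did not all follow the same libraries. Leaving out Ctse with its few counts, MAM replicate 1 was the lowest MAM library for 4 of 9 genes (Ctsb, Ctsd, Ctsk and Ctsl) and the highest for Ctsc and Ctss. In that library the summed CPM of alveolar macrophage markers was 557 against 261 to 496 in the other MAM libraries, but this came from Marco, which was not called between the groups and had 389 CPM there against 89.7 to 320 in the others. Without Marco the sum was 168 in MAM replicate 1 and 149 to 184 in the others. RAM replicate 3 was the lowest RAM library for 6 of the 9 genes, Ctsa, Ctsb, Ctsc, Ctsd, Ctsl and Ctss, and RAM replicate 4 the highest for 4. Apart from Ctsk, Ctsl and, in RAMs, Ctsh, no member spanned more than 1.35-fold from its lowest to its highest library of a group.

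**Figure D4:**
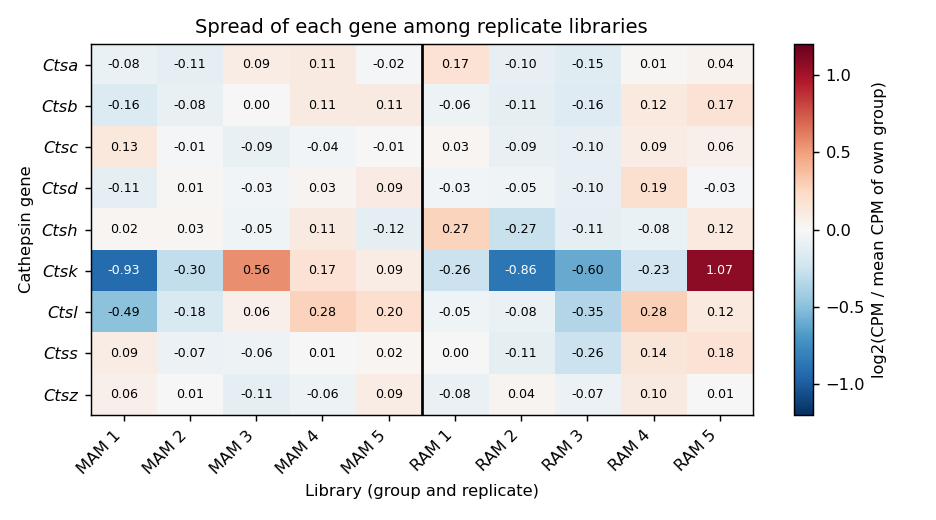
Heat map of log2(CPM / mean CPM of the library's own group) for 9 cathepsin genes (rows) in 10 libraries (columns), red above and blue below the group mean. The deepest colours belong to Ctsk, at 1.07 in RAM replicate 5 and -0.93 in MAM replicate 1.

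Other genes of the cathepsin system were examined as lists, whose counts stand beside 28.9% of all tested genes called higher and 27.3% called lower. Of 13 further cathepsin genes 7 were at 0 counts in every library and only Ctsf and Ctso could be tested. Ctsf, which passed the filter only through RAMs, was lower in MAMs, at 1.51 ± 1.505 CPM against 17.7 ± 3.18 (SD, n = 5), a log2 fold change of -3.54 (SE 0.653, adjusted p = 2.8e-04, edgeR). Ctso had 66.3 CPM in MAMs and 61.9 in RAMs and was not called (0.10).

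Of 9 tested genes for endogenous inhibitors 6 were called higher in MAMs and 1 lower, with a median log2 fold change of 1.77. Of these, 5 passed the filter only through MAMs (Cst7, Stfa3, Serpina3g, Ctla2a and Ctla2b), and of the other 4 genes 3 were higher and 1 lower. The median of those 4 lay between Serpinb6a (0.76) and Cst3 (1.44), below the 1.77 of the whole list. Cst3, the gene of secreted cystatin C, had a mean of 1343 FPKM in MAMs and 516 in RAMs, for a log2 fold change of 1.44 (SE 0.0862, adjusted p = 1.6e-09, edgeR). Cstb, the gene of the intracellular cystatin B, had a mean of 1296 FPKM in MAMs and 382 in RAMs, with a log2 fold change of 1.77. Serpinb6a (0.76) rose less. The largest log2 fold changes were in 3 genes of low level that belong to families of similar copies, so reads could be split: Stfa3, with 24 to 59 counts in MAM libraries and 0 in all RAM libraries, Serpina3g (6.99) and Ctla2b (6.02). The fitted fold of Stfa3 depends on the prior count and is not given, and with 3 counts as the limit for RAMs the gene still lay above the median of the list. Serpinb1a, which encodes an inhibitor of neutrophil serine proteases, fell by 5.20 on the log2 scale as the 1 lower gene of the list, with 94.6 CPM in RAMs and 2.59 in MAMs.

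Among 7 other lysosomal proteases 4 were higher and 2 lower in MAMs, with a median log2 fold change of 0.35. Of the 6 that passed the filter in both populations, 3 were higher and 2 lower. Without Cpq, which passed only through MAMs, the median lay between Dpp7 (-0.38) and Tpp1 (0.35). Lgmn encodes legumain, the asparaginyl endopeptidase that processes several procathepsins, and had 884 ± 252.5 CPM in MAMs against 119.4 ± 9.51 in RAMs (SD, n = 5), for a log2 fold change of 2.89 (SE 0.168, adjusted p = 1.1e-09, edgeR). That fold lay between those of Ctsb and Ctsl. Cpq (6.91), which passed the filter only through MAMs, and Scpep1 (1.81), both carboxypeptidases, rose as well, and Tpp1 rose by 0.35, which was not called with upper-quartile factors (0.18) or library totals alone (0.12). Prcp and Dpp7, which cleave after proline, fell by 0.49 and 0.38 on the log2 scale.

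Of 10 genes for sorting and activation 3 were higher, close to the share over all tested genes, and 5 lower. The sorting receptors differed in both directions. Igf2r, the cation-independent mannose 6-phosphate receptor, passed the filter only through MAMs and had 346 ± 31.8 CPM in MAMs and 4.67 ± 1.205 in RAMs (SD, n = 5), for a log2 fold change of 6.21 (adjusted p = 2.3e-13, edgeR). Sort1, the gene of sortilin, a sorting receptor independent of mannose 6-phosphate, had 66.4 ± 6.45 CPM in MAMs and 1625 ± 91.5 in RAMs (SD, n = 5), for a log2 fold change of -4.61 (adjusted p = 5.5e-15, edgeR). The cation-dependent receptor M6pr differed by -0.19. Grn, the gene of progranulin, a ligand of sortilin, rose by 1.68 and Psap, the gene of prosaposin, by 1.04, while Scarb2, a receptor that carries glucocerebrosidase to lysosomes, and Nagpa and Gnptg, which encode enzymes that make the mannose 6-phosphate tag, fell by 0.83, 0.72 and 0.44 on the log2 scale.

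Of 20 genes for acidification, most of them subunits of the vacuolar proton pump, 11 were higher, 2 lower and 7 not called, with a median log2 fold change of 0.40. Atp6v1a (1.12) and Tcirg1 (0.84) rose most, and Atp6ap1 rose by 0.43. Atp6v0d2, the d2 subunit of the pump, fell by 5.08 on the log2 scale, from 608 FPKM in RAMs to 17.96 in MAMs. Atp6v0c had at most 5 counts in any library although it was listed at a mean of 116 FPKM in MAMs, so its count value is uncertain. Without it 11 of 19 genes were higher, 2 lower and 6 not called, and the median was again 0.40.

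The 4 MiT/TFE transcription factor genes went both ways. Tfe3 (1.15) and Mitf (0.49) were higher in MAMs, and Tfeb (-1.13) and Tfec (-2.21) were lower. Among 8 substrate genes 4 could be tested, of which Prtn3 passed the filter only through MAMs, and the other 3 were also called higher. These were Cd74, the invariant chain that cathepsin S trims, by 2.60, and the endosomal receptors Tlr7 by 0.44 and Tlr9 by 5.41. Prtn3 encodes a granule protease activated by dipeptidyl peptidase I, and RAM libraries held 0 to 5 of its counts. Cd74 had 3303 ± 1728 CPM in MAMs and 546 ± 210.1 in RAMs (SD, n = 5).

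**Figure D5:**
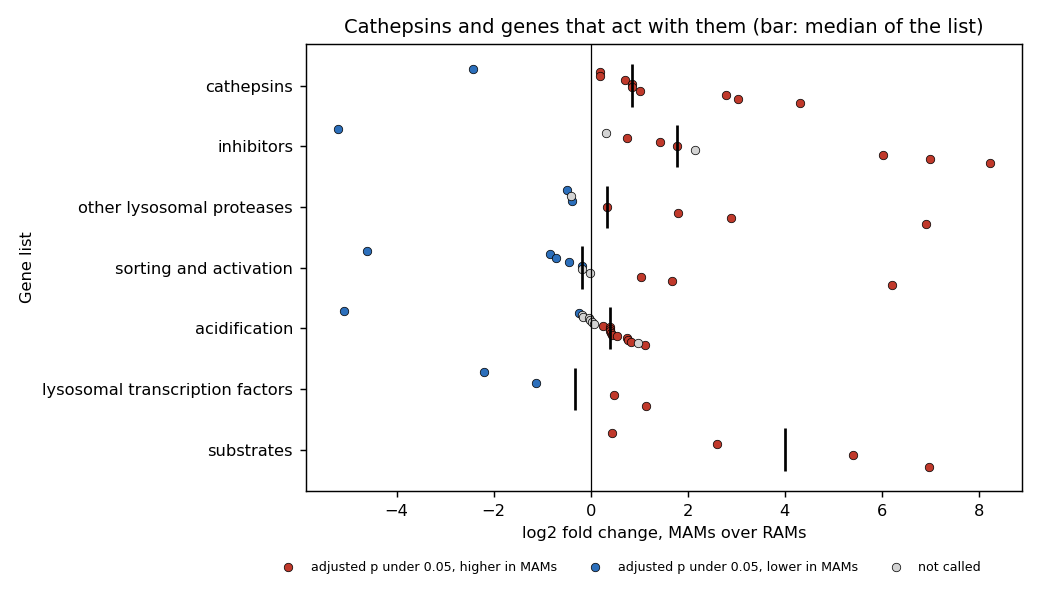
Log2 fold change in MAMs over RAMs of each tested gene (points, red called higher, blue called lower, grey not called) for the 10 cathepsins and 6 lists of related genes, with the median of each list as a bar. The median lies at 0.86 for the cathepsins, 1.77 for inhibitors and -0.32 for the transcription factors. Of the 9 inhibitors 5 passed the filter only through MAMs. The rightmost inhibitor is Stfa3, at 0 counts in RAMs, whose position depends on the prior count. Atp6v0c, whose counts are uncertain, is among the grey points for acidification.

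Promoter entries of RefSeq were found for 7 of the 10 members, all but Ctsb, Ctse and Ctsh, in windows from 250 bases before to 50 after the start. TCACGTGA, which reads the same on both strands, was in the windows of 2 of these 7 genes, against 1.12% of all 27025 genes with an entry and 2.24% of the 9016 tested genes with one. GAAANNGAA was in 1 (Ctss), against 9.01% of tested genes, and TTCNNNGAA, the gamma-activated site, also in 1 (Ctsc), against 8.24%. GAGGAAGT, an element bound by the macrophage factor PU.1, was in Ctsc and Ctss, against 4.02%. Both strands were searched, and a match is a description of the letters only.

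Markers of other cell types were measured in both populations. Summed CPM in MAMs and RAMs respectively was 5.61 to 36.9 and 20.98 to 50.1 for 7 neutrophil markers, 3.11 to 12.5 and 1.82 to 4.24 for 5 dendritic cell markers, and 5.16 to 17.8 and 3.85 to 18.7 for 7 lymphocyte markers. The tested neutrophil markers went both ways. Cxcr2 was called lower in MAMs, at a mean of 7.41 CPM against 31.2 in RAMs, and S100a8 (4.12 against 1.89) and S100a9 (3.88 against 0.350) were called higher. For 9 epithelial and tumour markers the summed CPM was 17.4 to 26.4 in MAMs and 612 to 735 in RAMs. Krt19, the most abundant, had 436 CPM in RAMs, while Sftpc had 14.4. In FPKM the RAM mean of Krt19 was 540, above those of all members but Ctsd and Ctss. Of the 7 tested markers 6 were called lower in MAMs, against 27.3% of all tested genes. Of the 6, Epcam and Sftpb passed the filter only through RAMs. All 4 markers that passed it in both populations were called lower. Krt18, which passed only through MAMs, was not called, at a median of 0.0144 CPM and a highest value of 8.84 in MAMs. Krt8, which was not tested, went the other way, at 0.615 to 3.31 CPM in MAM libraries and 0 to 0.205 in RAM libraries. Whether these transcripts came from other cells, and their part in the levels of the cathepsin genes, was not tested.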

How the data were processed

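RNA from 5 MAM and 5 RAM samples was sequenced as paired reads. Alignment by the authors used Tophat (v2.0.13) on GRCm38. Unique reads were then counted on UCSC RefGene models with htseq-count (HTSeq v0.6.1), and the authors deposited these raw counts for each library. The deposited FPKM values came from Cufflinks (v2.2.1), which the authors ran on the same alignments. FPKM values are scaled by transcript length and by mapped fragments. The strand setting is not given in the sources used here.

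Lines for unassigned reads were not part of library sizes. They held 56.5% ± 1.65 of each MAM file and 63.2% ± 0.898 of each RAM file (SD, n = 5). The test covered 11571 genes, those whose mean FPKM reached 1 in MAMs or RAMs and that had at least 1 count. It was run with edgeR 4.0.16 (R 4.3.3, TMM factors 0.897 to 0.943 in MAMs and 1.07 to 1.10 in RAMs, quasi-likelihood test, no covariates) and Benjamini-Hochberg adjustment. The script was tested on simulated data. Intervals are 95%, and limits for a count of 0 cover counting error only, since reads without molecular identifiers may be copies of 1 molecule. Gene positions came from GENCODE M21, promoters from RefSeq on GRCm38.p6. Python 3.11.15 and matplotlib 3.10.9 made the figures.

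The members, gene lists and tests were chosen with earlier results of these data known. Named besides the members were, for each list, its most abundant gene and up to 3 largest changes among called genes; others were named after their values were seen. The 21 alternatives were DESeq2 1.42.0, 3 other scalings, 2 filters, a replicate block, limma 3.58.1 with pseudocounts of 1 and 0.1 on log2 FPKM, glmTreat against a 2-fold change, 1% of the other group subtracted, and each library left out.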

Additional observations from a re-analysis of the deposited data

Results flagged for a closer look

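For each of the 10 genes the highest and the lowest library of a group were compared with the rest, as the gap to the nearest library over the whole range of the 5 libraries. Chance puts about 1 in 20 groups past the limit of 0.71, and 20 groups were examined. RAM libraries stood apart in 3 genes.

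Ctsk in RAM replicate 5 had 303 CPM, against 79.3 to 123 in the other RAM libraries, a gap of 0.804 of the range. Without this library the log2 fold change of Ctsk was -1.95 in place of -2.41. Acp5 was also highest in this library, at 177 CPM.

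Ctsd in RAM replicate 4 had 6048 CPM, against 4958 to 5206 in the others, a gap of 0.773 of the range. Without it the log2 fold change of Ctsd was 0.25 in place of 0.20, and the adjusted p was 0.00246 (edgeR quasi-likelihood test, Benjamini-Hochberg).

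Ctse in RAM replicate 1 had 0.479 CPM, from 28 counts, against 0 to 0.125 CPM in the others, a gap of 0.739 of the range. Without it the log2 fold change of Ctse was 5.51 in place of 4.33.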

How the results depend on the processing

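Of 210 values, the 10 members under 21 alternatives each, 190 kept direction and side of the threshold. In 18 the call was lost, and in 2 the sign turned, Ctsa and Ctsd with library totals alone (-0.024 and -0.023). Ctsb, Ctse, Ctsk and Ctsl kept their calls throughout. The number of members called higher, 9, was 7 with upper-quartile factors and with library totals alone, 8 with limma, and between 7 and 9 with a library left out. A test against a fold change of 2 asks for more than a difference from 0, and called 3 members higher and 1 lower, and 2511 of the tested genes in place of 6504. Over the other settings 6122 to 7500 genes were called, fewest without RAM replicate 2 and most with no filter. The 2 settings with other filters tested other sets of genes, so their counts are not out of 11571. Among settings on the same genes the most, 7040, were called with library totals alone.

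The groups share replicate numbers. The correlation of the deviations of same-numbered libraries ran from -0.0366 to 0.0294, and 2 of 5 MAM libraries correlated best with their own number. With 5 libraries in each group, these values cannot tell whether same-numbered samples were handled together. With the replicate number as a block, 6305 genes were called and 8 members were higher, since Ctsa missed the threshold (0.20, adjusted p = 0.0503, edgeR). Of 1071 values for 51 other named genes, 39 lost a call, 4 gained one and 0 turned. Of 672 counts of calls in the gene lists, 45 moved by more than 1.5 times. Shares of the cathepsin pool rest on FPKM, whose depth is not known, and Ctse on counts too low for a firm fold.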
